A study of Mus musculus with 12 samples.

Results

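Blood vessels and the leukocytes that leave them were followed through 10 genes, Pecam1, Cdh5, Kdr, Flt1, Vegfa, Vwf, Sele, Selp, Icam1 and Vcam1. They were chosen by name, as the genes of the endothelial surface, of the VEGF axis and of leukocyte adhesion, out of 56923 gene identifiers in the table, and all 10 were found and passed the filter on low counts. Bulk RNA-seq had been run on back skin of female C57BL/6 mice aged 8 to 10 weeks, in 4 groups of 3 libraries. WT mice received either control cream or 5% imiquimod (IMQ) cream on shaved back skin for 6 days, and mice labelled as lacking Lcn2 received the same pair of treatments. IMQ is a Toll-like receptor 7 agonist whose daily use gives a psoriasis-like dermatitis. The knockout is described as an Lcn2-/- line bought from the Jackson Laboratory with WT littermates, whereas the genotype tag of these samples reads LCN2 knockdown, and the control treatment is tagged none.

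Lcn2, which encodes the secreted iron-siderophore carrier lipocalin-2 and is the gene named in the genotype label, was read in every library. It stood at 10.5, 9.22 and 15.9 CPM (read counts divided by a library size that was scaled with the trimmed mean of M values) in the control libraries labelled Lcn2-/- and at 6.28, 8.64 and 4.57 CPM in WT controls. With IMQ it stood at 34.3, 29.9 and 49.8 CPM under the knockout label and at 61.2, 183 and 76.1 CPM in WT. The presence of Lcn2 counts goes against the label, although with IMQ every labelled library lay below every WT library. That log2 difference was -1.49 ± 0.40 (SE, edgeR adjusted p = 0.0525). The counts do not show which exons the reads came from, and the mice are called "labelled Lcn2-/-" throughout. Library totals ran from 16448226 to 28592110 counts, so that 3 counts, the limit that a count of 0 allows, correspond to 0.105 to 0.182 CPM for counting error alone. No pair of libraries within a group agreed within sampling noise. Nothing says that same-numbered libraries share an animal, and p-values measure the spread between these samples.

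Leukocytes reach inflamed skin by rolling on the selectins of activated endothelium, E-selectin (Sele) and P-selectin (Selp), and then by holding firmly to ICAM-1 and VCAM-1 through their integrins. They cross at junctions held by VE-cadherin (Cdh5) and PECAM-1 (Pecam1). VEGF-A (Vegfa), which epidermal keratinocytes secrete, acts on endothelium through VEGFR2 (Kdr), the main signalling receptor, and VEGFR1 (Flt1), a high-affinity receptor that also works as a decoy. Von Willebrand factor (Vwf) and P-selectin are stored together in the Weibel-Palade bodies of endothelial cells and are also carried by platelets.

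In WT skin, IMQ raised 6 of the 10 genes and lowered none. The 2 endothelial selectins, Vegfa, Vwf, Pecam1 and Flt1 were the genes that rose, by 1.44-fold (Flt1) to 5.39-fold (Sele). In skin labelled Lcn2-/-, IMQ raised 5 genes, Vwf, Vcam1, Pecam1, Cdh5 and Flt1, and neither selectin nor Vegfa passed the test. No gene passed the test between the IMQ groups of the 2 labels, between the control groups, or for the difference of the IMQ responses. In bulk skin, more endothelial cells and more RNA per endothelial cell cannot be told apart. The test was edgeR's quasi-likelihood test over all 18529 genes that passed the filter, with Benjamini-Hochberg adjustment, and a gene was called at an adjusted p under 0.05. Log2 fold changes are given ± their standard error. Of all genes tested, 14.2% were called higher and 14.3% lower with IMQ in WT, against 14.1% higher and 11.2% lower with IMQ under the knockout label. Both IMQ groups are compared with their own controls, but the comparison of the 2 IMQ groups shares its libraries with these.

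**Figure D1:**
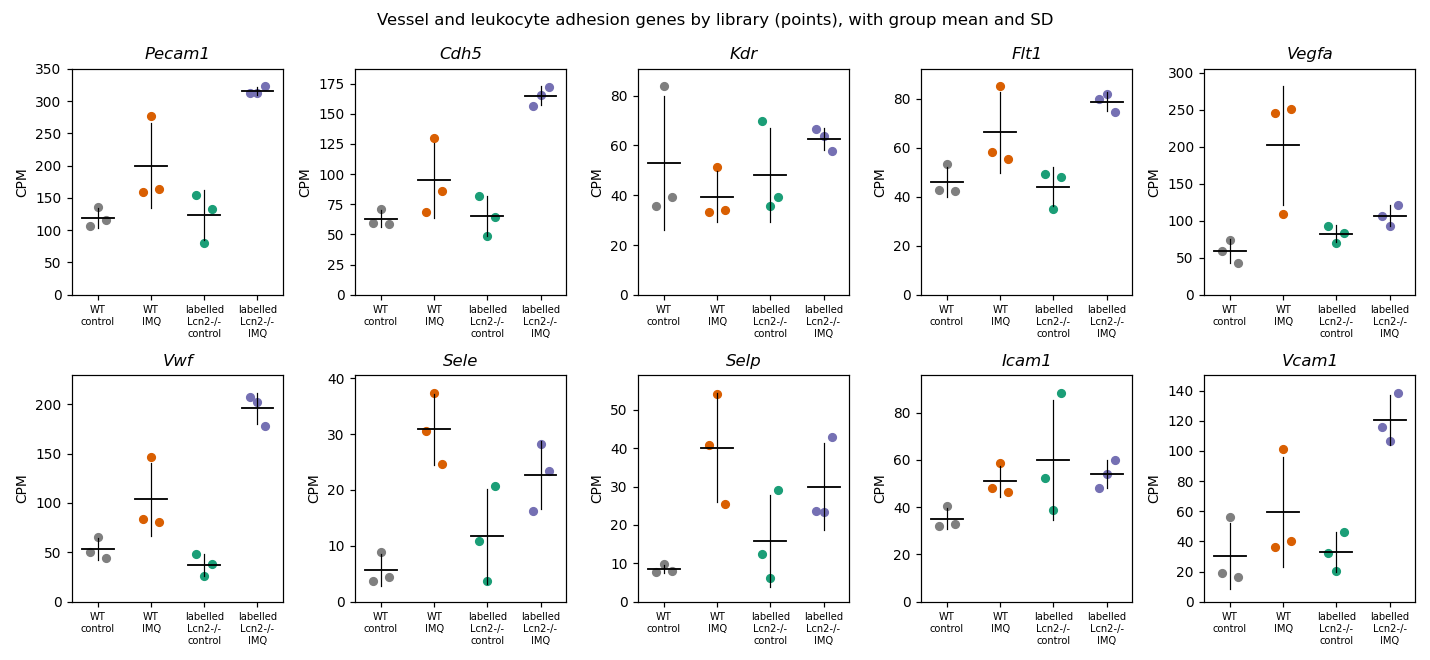
Level of each of the 10 genes in CPM (linear axis from 0) in the 3 libraries of each group; points are libraries, horizontal bars group means and vertical lines 1 SD. Pecam1, Cdh5, Vwf and Vcam1 are highest in the IMQ libraries labelled Lcn2-/-, and Vegfa is high in 2 of the 3 WT IMQ libraries.

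Levels can be compared between genes only per length, as RPKM (CPM per kilobase of merged exons). In WT control skin Pecam1 led with 19.1 ± 2.40 (SD, n = 3) RPKM, followed by Cdh5 with 14.99 ± 1.63 (SD, n = 3) RPKM and Vegfa with 13.7 ± 3.72 (SD, n = 3) RPKM. Icam1 came next with 8.05 ± 1.05 (SD, n = 3) RPKM, then Kdr with 5.86 ± 2.98 (SD, n = 3) RPKM, and Flt1, Vcam1 and Vwf lay together at 3.42, 3.42 and 3.32 RPKM. Sele and Selp were lowest, with 1.96 ± 0.972 (SD, n = 3) and 1.92 ± 0.257 (SD, n = 3) RPKM. Among neighbours in that order, the libraries did not overlap between Pecam1 and Cdh5 or between Vegfa and Icam1, and all the other neighbours overlapped. In the IMQ libraries labelled Lcn2-/- Pecam1 and Cdh5 again led, with 50.7 ± 1.02 (SD, n = 3) and 39.3 ± 1.89 (SD, n = 3) RPKM. By group mean, Vcam1 came next after Vegfa with 13.6 ± 1.86 (SD, n = 3) RPKM, and Flt1 was lowest with 5.84 ± 0.282 (SD, n = 3) RPKM. The libraries of Vcam1 overlapped those of Icam1 and Vwf, and those of Flt1 overlapped Sele and Selp. This group differs from WT controls in both label and treatment.

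WT control library 2, WT IMQ library 2 and control library 3 of the labelled mice stood apart in several of the 10 genes. WT IMQ library 2 had higher endothelial and lower keratinocyte marker sums than the other WT IMQ libraries: a list of 22 blood vessel endothelial markers, none of them among the 10 genes, summed to 679.7, 1097 and 711 CPM in the 3 libraries, and 11 keratinocyte markers summed to 55208, 38569 and 51272 CPM. Control library 3 of the mice labelled Lcn2-/- had the highest Sele, Selp and Icam1 of all 6 control libraries, at an endothelial sum of 541 CPM. WT control library 2 had the highest Kdr of all 12 libraries, and 5 lymphatic endothelial markers summed to 729 CPM in it against 160.4 and 241 CPM in the other WT controls.

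The 2 selectins showed the largest rises in WT skin. Sele (ENSMUSG00000026582; GRCm38 chromosome 1, 164048234 to 164057677, plus strand), the receptor on which leukocytes roll, stood at 3.70, 8.94 and 4.47 CPM in WT controls and at 30.6, 37.4 and 24.6 CPM with IMQ. The lowest IMQ library lay above the highest control. The rise was 5.39-fold, a log2 fold change of 2.43 ± 0.52 (adjusted p = 0.00552). In mice labelled Lcn2-/- the controls stood at 10.8, 3.73 and 20.6 CPM and the IMQ libraries at 16.2, 28.2 and 23.4 CPM, so that control library 3 lay inside the range of the treated libraries. The log2 fold change there was 0.94 ± 0.50 (adjusted p = 0.184) and was not called. Without control library 3 it was 1.62 (adjusted p = 0.0478) by the same test.

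Selp (ENSMUSG00000026580; chromosome 1, 164115264 to 164150026, plus strand), the stored selectin of endothelium and platelets, followed the same pattern. WT controls held 7.81, 9.80 and 7.87 CPM and WT IMQ libraries 41.0, 54.0 and 25.6 CPM, with no overlap. The rise was 4.72-fold, a log2 fold change of 2.24 ± 0.49 (adjusted p = 0.00624). Under the knockout label the controls held 12.3, 6.07 and 29.2 CPM and the IMQ libraries 23.6, 23.3 and 43.0 CPM, and control library 3 was above 2 of the 3 treated libraries. The log2 fold change was 0.92 ± 0.47 (adjusted p = 0.176), which was not called, and without that control library it was 1.69 (adjusted p = 0.0212). The difference of the 2 IMQ responses was -1.49 ± 0.71 (adjusted p = 0.224) for Sele and -1.32 ± 0.67 (adjusted p = 0.249) for Selp on the log2 scale, and neither was called. Without labelled control library 3 they were -0.81 (adjusted p = 0.49) and -0.54 (adjusted p = 0.583). A pair of genes on the opposite strand shares exonic bases with Selp, but held 19 and 35 counts over all libraries. A list of 7 platelet markers summed to 41.3 to 125 CPM in WT controls and 62.6 to 78.0 CPM with IMQ, and 1 of the 4 that could be tested was called, Itga2b (log2 fold change 1.14).

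Over the 12 libraries, Selp was also the gene most like Sele. Among 15983 tested genes with a mean of at least 1 CPM, the root-mean-square difference from Sele in log2 CPM, after centring each gene on its own mean, was 0.37 for Selp, 0.40 for Xlr4b, 0.43 for Socs3, 0.43 for Tmem132d and 0.46 for Sez6l2. The same measure taken from Cdh5 was smaller and named Mmrn2 (0.12), Pecam1 (0.12), Eng (0.15), Erg (0.16) and Mecom (0.18). Cdh5 also varied less about its own mean, with a root-mean-square of 0.62 against 1.16 for Sele, so the sizes of the differences are not directly comparable. These are descriptions over libraries that share treatment, depth and tissue make-up.

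The upstream sequences of Sele and Selp are given because these 2 selectin genes had the smallest difference from each other in the measure taken from Sele. They are the 250 bases before each RefSeq start in GRCm38.p6, chr1:164047984-164048233 for Sele and chr1:164115014-164115263 for Selp, both on the plus strand and written 5′ to 3′, with the match to TGANTCA, the AP-1 type motif, in capitals.
Sele: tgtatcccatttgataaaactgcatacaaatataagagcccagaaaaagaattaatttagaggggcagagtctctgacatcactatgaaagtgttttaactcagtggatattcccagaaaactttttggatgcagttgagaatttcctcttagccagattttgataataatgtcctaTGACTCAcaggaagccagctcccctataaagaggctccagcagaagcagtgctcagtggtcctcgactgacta
Selp: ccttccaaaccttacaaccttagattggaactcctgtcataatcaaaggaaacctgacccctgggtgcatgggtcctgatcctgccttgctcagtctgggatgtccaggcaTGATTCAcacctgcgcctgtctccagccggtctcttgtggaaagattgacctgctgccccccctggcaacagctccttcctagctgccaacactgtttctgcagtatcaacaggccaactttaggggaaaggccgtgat
Each window held 1 such match, beginning 73 bases before the start in Sele and 139 bases before it in Selp. The motif reads the same on both strands, and 6.75% of 32851 promoter windows of this length hold it. RefSeq entries were found for 6 of the 10 genes, Kdr, Flt1, Vegfa, Sele, Selp and Icam1. The NF-kB consensus was searched as GGGRNWYYCC (R is A or G, W is A or T, Y is C or T, N is any base) on both strands. It is held by 3.9% of windows and was matched in Kdr, Flt1 and the window of the main Vegfa start, but not in the other Vegfa window. Sites that depart from these letters were not counted. The GC box GGGCGG, held by 32.7% of windows on either strand, was matched in Kdr, Flt1, Vegfa and Icam1. A match is a description of letters in a window and not evidence of binding.

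Vegfa (ENSMUSG00000023951; chromosome 17, 46016993 to 46032369, minus strand), the ligand of the VEGF receptors, rose in WT skin. WT controls held 59.4, 74.5 and 42.6 CPM and WT IMQ libraries 246, 109 and 250.4 CPM. All 3 treated libraries were above the controls, and library 2 was far below the other two. The rise was 3.43-fold, a log2 fold change of 1.78 ± 0.29 (adjusted p = 0.00123), and it was called whichever of the 6 libraries was left out. In mice labelled Lcn2-/- the controls held 93.4, 70.3 and 83.7 CPM and the IMQ libraries 106, 92.6 and 121 CPM, which overlap, and the log2 fold change was 0.37 ± 0.29 (adjusted p = 0.371). Between the IMQ groups the log2 difference was -0.92 ± 0.29 (adjusted p = 0.0787), lower under the knockout label, and the difference of the responses was -1.41 ± 0.41 (adjusted p = 0.0832). Neither was called. Without WT IMQ library 2 both were, at -1.22 (adjusted p = 0.00722) and -1.70 (adjusted p = 0.00975).

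Vegfa was called with IMQ only in WT, whereas the keratinocyte markers rose in sum in WT and under the knockout label. Their sum was 6435 to 10376 CPM in WT controls, 38569 to 55208 CPM in WT IMQ skin, 6765 to 9162 CPM in labelled controls and 22649 to 33808 CPM in labelled IMQ skin, and WT IMQ library 2, the lowest in Vegfa of its group, was also the lowest in this sum. Of the 11 markers, 10 were called higher and 1 lower in WT, led by Krt16 (log2 fold change 7.92), Krt6a and Krt1, and 7 higher and 1 lower under the knockout label. Trp63 was called lower in labelled than in WT IMQ skin (-0.85), a call held with 1 of the 6 libraries left out in turn and lost with each of the other 5 (edgeR adjusted p up to 0.164). WT control library 2 and labelled control library 1 were each the highest of their group in Vegfa and the lowest in the keratinocyte sum. The part of keratinocytes in the Vegfa result was not tested. The window upstream of the main Vegfa start, chr17:46032378-46032627 on the minus strand, is shown with its 2 adjacent GC boxes in capitals, since Vegfa encodes the secreted growth factor among the 10 genes.
Vegfa: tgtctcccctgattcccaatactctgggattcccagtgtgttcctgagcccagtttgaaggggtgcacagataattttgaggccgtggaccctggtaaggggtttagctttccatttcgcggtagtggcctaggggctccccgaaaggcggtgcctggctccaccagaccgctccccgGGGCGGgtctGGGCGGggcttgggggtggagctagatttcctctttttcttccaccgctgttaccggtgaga

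Of the 2 VEGF receptors, Flt1 was called in both IMQ comparisons and Kdr in none. Flt1 (ENSMUSG00000029648; chromosome 5, 147561604 to 147726011, minus strand) stood at 42.7, 53.2 and 42.5 CPM in WT controls and 58.1, 85.2 and 55.5 CPM with IMQ, a non-overlapping rise of 1.44-fold (log2 fold change 0.52 ± 0.18, adjusted p = 0.0487). Under the knockout label it went from 49.3, 34.8 and 48.0 CPM to 79.9, 82.0 and 74.6 CPM, also without overlap, a rise of 1.79-fold (log2 fold change 0.84 ± 0.18, adjusted p = 0.00659). Kdr (ENSMUSG00000062960; chromosome 5, 75932827 to 75978458, minus strand) was not called in any comparison. It stood at 35.5, 83.9 and 39.2 CPM in WT controls and 33.3, 51.2 and 34.0 CPM with IMQ, and the log2 fold change of -0.42 ± 0.34 (adjusted p = 0.375) became 0.078 (adjusted p = 0.869) without WT control library 2. Under the knockout label Kdr went from 70.0, 35.7 and 39.1 CPM to 66.4, 63.6 and 57.9 CPM, with a log2 fold change of 0.37 ± 0.34 (adjusted p = 0.441).

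Both junction genes rose with IMQ under the knockout label, and Pecam1 also in WT. Pecam1 (ENSMUSG00000020717; chromosome 11, 106654217 to 106750628, minus strand) is also carried by leukocytes and platelets. In WT it went from 106, 136 and 115 CPM to 159.5, 277 and 164 CPM, a 1.68-fold rise with no overlap (log2 fold change 0.75 ± 0.25, adjusted p = 0.0425). Under the label it went from 155, 79.9 and 133 CPM to 312, 313 and 323 CPM, a 2.57-fold rise (log2 fold change 1.36 ± 0.25, adjusted p = 0.00309), and the 3 treated libraries were nearly equal. Cdh5 (ENSMUSG00000031871; chromosome 8, 104101625 to 104144511, plus strand), whose product is found nearly only in endothelium, stood at 59.4, 70.9 and 58.7 CPM in WT controls and 68.8, 129.6 and 86.0 CPM with IMQ, where library 1 fell within the controls, and the log2 fold change of 0.59 ± 0.22 (adjusted p = 0.0697) was not called. It was 0.77 (adjusted p = 0.0326) without that library and 0.29 (adjusted p = 0.278) without WT IMQ library 2. Under the label it went from 82.3, 49.1 and 64.6 CPM to 157, 166 and 173 CPM, a 2.53-fold rise (log2 fold change 1.34 ± 0.23, adjusted p = 0.00194).

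Vwf (ENSMUSG00000001930; chromosome 6, 125546774 to 125686679, plus strand) had the largest fold change of the 10 genes under the knockout label. The controls held 48.0, 25.9 and 37.8 CPM and the IMQ libraries 208, 202 and 178 CPM, a 5.25-fold rise (log2 fold change 2.39 ± 0.27, adjusted p = 0.000191). In WT it rose 1.94-fold, from 50.1, 65.5 and 44.2 CPM to 84.0, 146 and 80.6 CPM (log2 fold change 0.96 ± 0.26, adjusted p = 0.0183), with no overlap in either case. The difference of the 2 responses was 1.44 ± 0.37 (adjusted p = 0.0648) on the log2 scale and was not called. It was called without WT IMQ library 2 at 1.77 (adjusted p = 0.0124), without WT control library 3 at 1.55 (adjusted p = 0.0442) and without labelled control library 1 at 1.66 (adjusted p = 0.0421).

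Of the integrin ligands of firm adhesion, Vcam1 was called with IMQ under the knockout label and Icam1 in no comparison. Vcam1 (ENSMUSG00000027962; chromosome 3, 116109949 to 116129688, minus strand) went from 32.0, 20.5 and 46.4 CPM to 116, 106 and 138 CPM under the knockout label, without overlap, a 3.64-fold rise (log2 fold change 1.87 ± 0.51, adjusted p = 0.0214). That call was lost, at adjusted p up to 0.072 by the same edgeR test, when any of labelled control libraries 1 and 2 or labelled IMQ libraries 1 and 3 was left out. In WT it stood at 19.2, 55.8 and 16.1 CPM in controls and 36.1, 101 and 40.3 CPM with IMQ, and library 2 was the highest of both groups. The log2 fold change of 0.96 ± 0.50 (adjusted p = 0.177) was not called, and without WT control library 2 it was 1.75 (adjusted p = 0.0244).

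Icam1 (ENSMUSG00000037405; chromosome 9, 21015985 to 21028817, plus strand) was called in no comparison. It stood at 32.0, 40.4 and 33.0 CPM in WT controls and 48.0, 58.5 and 46.3 CPM with IMQ, which do not overlap, and its log2 fold change was 0.54 ± 0.24 (adjusted p = 0.122). Under the label the controls held 52.5, 39.0 and 88.4 CPM and the IMQ libraries 48.2, 54.2 and 59.9 CPM, with a log2 fold change of -0.15 ± 0.24 (adjusted p = 0.689). Without control library 3 it turned to 0.24 (adjusted p = 0.379). The 95% interval of the difference over all libraries ran from -0.68 to 0.38. An opposite-strand gene overlapping each of Icam1 and Vcam1 held 17 and 7 counts in all.

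**Figure D2:**
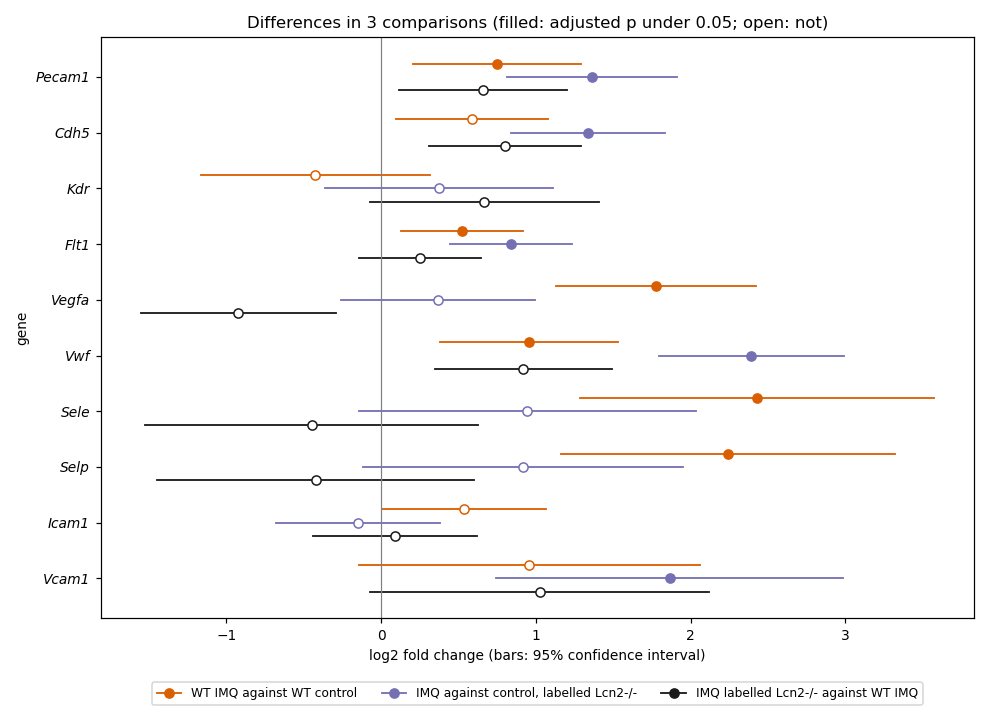
Log2 fold change of each gene (points) with its 95% confidence interval (bars) in the 2 IMQ comparisons and between the IMQ groups; filled points passed an adjusted p under 0.05 in edgeR's quasi-likelihood test. Sele, Selp and Vegfa are filled only for WT, Cdh5 and Vcam1 only for the knockout label, and no point is filled between the IMQ groups.

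Groups that do not overlap were also counted. With IMQ, 7 genes in WT and 5 under the knockout label were higher in every treated library than in every control, against 40.6% and 45.9% of all genes tested that did not overlap in either direction. The median log2 fold change of the 10 genes was 0.85 in WT and 0.93 under the label, beside -0.025 and -0.046 for all genes tested. Between the IMQ groups, 5 genes (Pecam1, Cdh5, Kdr, Vwf and Vcam1) were higher in every labelled library than in every WT library, where 33.3% of all genes did not overlap, but none was called, at a background of 2.19% called higher and 2.6% lower. The log2 difference was 0.80 ± 0.22 (adjusted p = 0.0598) for Cdh5, 0.92 ± 0.26 (adjusted p = 0.0627) for Vwf, 0.66 ± 0.25 (adjusted p = 0.121) for Pecam1, 1.02 ± 0.50 (adjusted p = 0.213) for Vcam1 and 0.67 ± 0.34 (adjusted p = 0.227) for Kdr. That background rested on the libraries used: the 405 genes called higher and 481 lower became 1288 and 1438 without WT IMQ library 2, and at most 1 and 3 without any 1 of the other 5 IMQ libraries. Of the 10 genes, 4 had an unadjusted p under 0.05, and DESeq2 called 3 (Cdh5 and Vwf higher, Vegfa lower). Over all 18529 genes, DESeq2 called 1278 higher and 1372 lower. Without WT IMQ library 2, edgeR called Vwf, Cdh5 and Pecam1 higher and Vegfa lower. Kdr, Vcam1, Flt1, Sele, Selp and Icam1 had 95% intervals on both sides of 0, at -0.073 to 1.41, -0.071 to 2.12, -0.14 to 0.64, -1.52 to 0.63, -1.45 to 0.60 and -0.44 to 0.62.

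The control groups and the difference of the responses gave no calls. Between the 2 control groups, at a background of 0.0108% called in either direction, Icam1 had the largest value in relation to its error, a log2 difference of 0.77 ± 0.24 (adjusted p = 0.62), the only one of the 10 with an unadjusted p under 0.05, and DESeq2 called none. Without labelled control library 3 the Icam1 difference was 0.38 (adjusted p = 1). For the difference of the responses, where edgeR called 2.15% of all genes, 3 genes (Vwf, Vegfa and Cdh5) had an unadjusted p under 0.05. DESeq2 called Vwf and Vegfa, among 1109 genes called higher and 983 lower of 18529. The difference for Cdh5, 0.75 ± 0.32 (adjusted p = 0.178), was called by edgeR without WT IMQ library 2, at 1.04 (adjusted p = 0.0332). That fit called 1015 genes higher and 912 lower of 19248. In the WT comparison, the calls of Pecam1, Flt1 and Vwf were lost when WT control library 1, WT control library 3 or WT IMQ library 2 was left out, leaving Sele, Selp and Vegfa. The call of Pecam1 was also lost without WT control library 2 and that of Flt1 without WT IMQ library 1.

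The 10 genes were also set beside the 22 endothelial markers. These markers, which check that vessel RNA was present, all had counts. Under the knockout label 19 of the 22 rose with IMQ and none fell, their median change being 1.21 on the log2 scale, and their sum went from 431 to 712 CPM to 1417 to 1455 CPM. In WT 3 rose and 2 fell, with a median of 0.39 and sums of 615 to 750.2 CPM in controls and 679.7 to 1097 CPM with IMQ. Cd93 rose in both (1.50 and 1.91), Tie1 and Plvap rose under the label, and the transcription factor Sox18 fell in WT (-1.80), as did the adrenomedullin co-receptor Ramp2, whose call was lost in 3 of 6 fits with 1 library left out (edgeR adjusted p up to 0.109). Between the IMQ groups 4 of the 22 were higher under the label, Sox18, Ramp2 and Clec14a among them, a count that was 0 when any of the other 5 libraries was left out and 16 without WT IMQ library 2.

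Set against the endothelial sum, Cdh5 varied least of the 10 genes, its highest library being 1.28 times its lowest. It took 9.62, 9.45 and 9.55 counts per 100 counts of the 22 markers in WT controls, 10.1, 11.8 and 12.1 in WT IMQ skin, 11.6, 11.4 and 11.9 in labelled controls and 11.1, 11.7 and 11.9 in labelled IMQ skin. Vwf still rose on this scale, from 8.12, 8.73 and 7.20 to 12.4, 13.3 and 11.3 in WT and from 6.73, 6.01 and 6.99 to 14.6, 14.2 and 12.2 under the label. Sele took 0.599, 1.19 and 0.727 in WT controls and 4.50, 3.41 and 3.46 in WT IMQ skin, but 1.52, 0.865 and 3.81 in labelled controls and 1.14, 1.98 and 1.61 in labelled IMQ skin. Thus the WT IMQ libraries were above all the labelled IMQ libraries for Sele, and the same held for Selp, with 6.03, 4.93 and 3.60 against 1.66, 1.64 and 2.95, as it did for 59.1% of all genes tested.

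When edgeR was rerun with the endothelial sum as the library size, which moves the median log2 fold change of all genes to -0.30 (WT IMQ against control), -1.45 (IMQ under the label), -0.86 (between the IMQ groups) and -1.15 (difference of the responses), values are relative to endothelial RNA. On that scale Sele, Selp, Vegfa, Flt1 and Icam1 were called lower in labelled than in WT IMQ skin, Sele at -1.26 and Selp at -1.22 on the log2 scale, where 52.2% of all genes tested were called lower. The difference of the responses was called for Sele (-2.56), Selp (-2.37), Icam1 (-1.78) and Vegfa (-2.63), where 47.6% of all genes were called lower, so that in both comparisons the share of the 10 genes was near that of all genes. In WT, Sele, Selp, Vegfa and Vwf were still called higher, beside 5.54% of all genes. Under the label Vwf alone was called higher (1.06), Kdr, Flt1, Icam1 and Vegfa were called lower, beside 1.91% and 79.6% of all genes, and Pecam1 and Cdh5 were at 0.027 and -0.012. Since the median of all genes moves down on this scale, these values describe the genes relative to 22 others and not their level in skin.

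**Figure D3:**
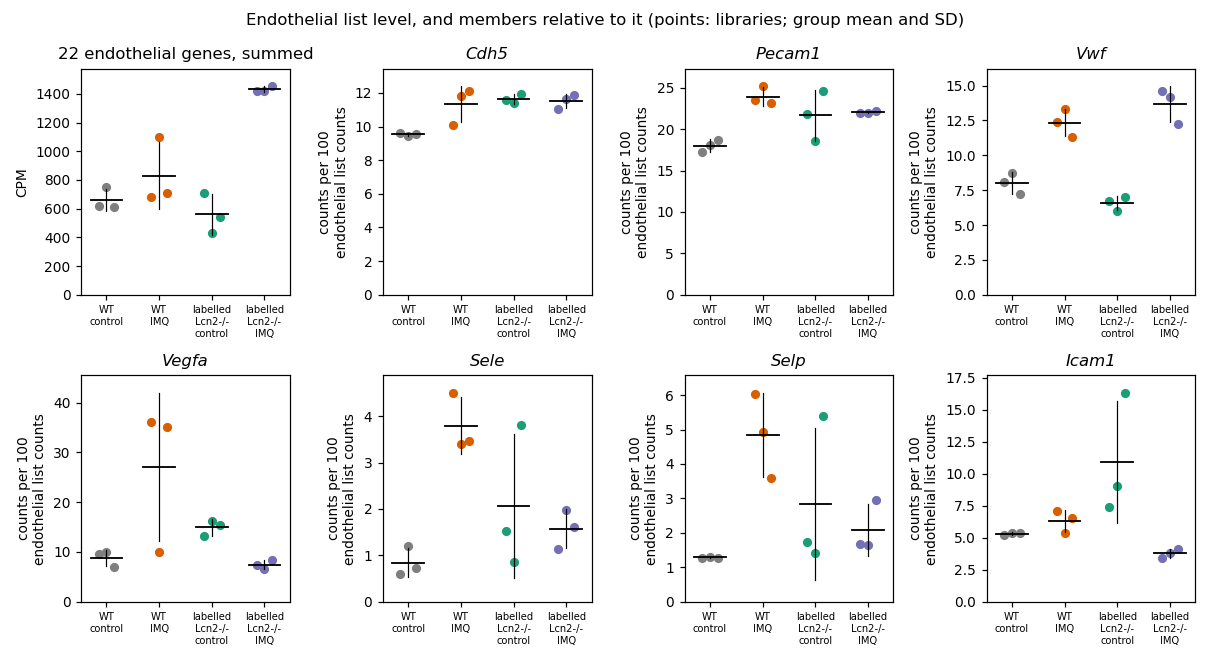
Summed level of the 22 endothelial markers in CPM (first panel) and counts of 7 genes per 100 counts of those markers (other panels, linear axes from 0), by library, with group mean and 1 SD. Cdh5 stays between 9.45 and 12.1 per 100 in all 12 libraries, while Sele and Selp are higher in every WT IMQ library than in every labelled IMQ library, as are 59.1% of all genes tested.

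Markers of other cells that carry these genes moved as well. The 8 leukocyte markers, which bear on Pecam1 and Icam1, were all called higher with IMQ under the label (Tyrobp, Fcer1g and Laptm5 led, with log2 fold changes of 2.18, 2.11 and 2.09) and none was called in WT, and their sum was 512 to 1366, 991 to 1672, 395 to 823 and 1677 to 2232 CPM in WT controls, WT IMQ, labelled controls and labelled IMQ skin. All 8 leukocyte markers had positive log2 fold changes in WT too. None was called between the IMQ groups (edgeR, lowest adjusted p = 0.139) or for the difference of the responses (edgeR, lowest adjusted p = 0.0855). Of 8 pericyte and vascular smooth muscle markers, 4 rose and 1 fell under the label and 2 rose and 1 fell in WT. Rgs5 rose in both (1.28 and 0.85), although the WT call was lost in 2 of 6 fits with 1 library left out. None of 5 lymphatic markers was called in either. The part of these cells in the results of the 10 genes was not tested.

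Other genes of the same pathways were taken from lists. Of 17 further VEGF, angiopoietin and Notch genes, 7 rose and 3 fell in WT and 10 rose and 1 fell under the label. Esm1, a marker of VEGF-stimulated tip cells, rose by 2.27 in WT and 2.89 under the label on the log2 scale, and the peptide ligand Apln by 2.24 and 1.89. Thbs1, an inhibitor of angiogenesis, rose as well, by 2.19 and 1.70. Between the IMQ groups the lymphatic growth factor Vegfc was higher under the label (0.92) and Hif1a, the oxygen-sensitive activator of Vegfa, was lower (-0.64). With any 1 of the other 5 IMQ libraries left out both calls were lost, with adjusted p up to 0.205 and 0.132 in edgeR, and without WT IMQ library 2 both were kept.

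Of 12 NF-kB subunits and targets, the pathway that induces selectins, Icam1 and Vcam1, 7 rose and 2 fell in WT and 4 rose under the label. With 1 library left out, 5 to 8 were called higher and 0 to 2 lower in WT. Under the label, 2 to 3 were then called higher and 0 to 1 lower. These are values of whole skin, and which cells they come from was not tested. Bcl3, a nuclear NF-kB cofactor, rose in both (3.03 and 1.08) and the difference of its responses, lower under the label, was -1.96 on the log2 scale (edgeR, adjusted p = 0.0246). The responses of Nfkbiz (-1.88, adjusted p = 0.0432) and of the subunit gene Rel (-0.85, adjusted p = 0.0304) also differed. With 1 library left out in turn, these 3 calls held in 5, 4 and 3 of 12 fits. The edgeR adjusted p values ran up to 0.0793, 0.133 and 0.0988.

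Of 17 leukocyte integrins and selectin ligands, 3 rose and 3 fell in WT and 11 rose under the label. Itgam, the alpha chain of the Mac-1 integrin that binds ICAM-1, rose by 1.56 and 2.75, and its WT call was lost in 5 of 6 fits with 1 library left out (edgeR adjusted p up to 0.12). Cd44, which keratinocytes also express, was lower in labelled than in WT IMQ skin (-0.78). With 1 library left out in turn, that call held in 1 of 6 fits (edgeR adjusted p up to 0.13). Of 15 tested junction and transmigration genes of 16 listed (Icam4 had no counts), 2 rose and 2 fell in WT and 3 rose and 3 fell under the label. Icam2, constitutive on endothelium, rose under the label (1.11), and Alcam fell in both (-1.57 and -1.64). The median log2 fold changes of these 4 lists were 0.54, 0.70, -0.062 and 0.034 in WT and 1.04, 0.31, 1.22 and 0.21 under the label, in the order given.

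**Figure D4:**
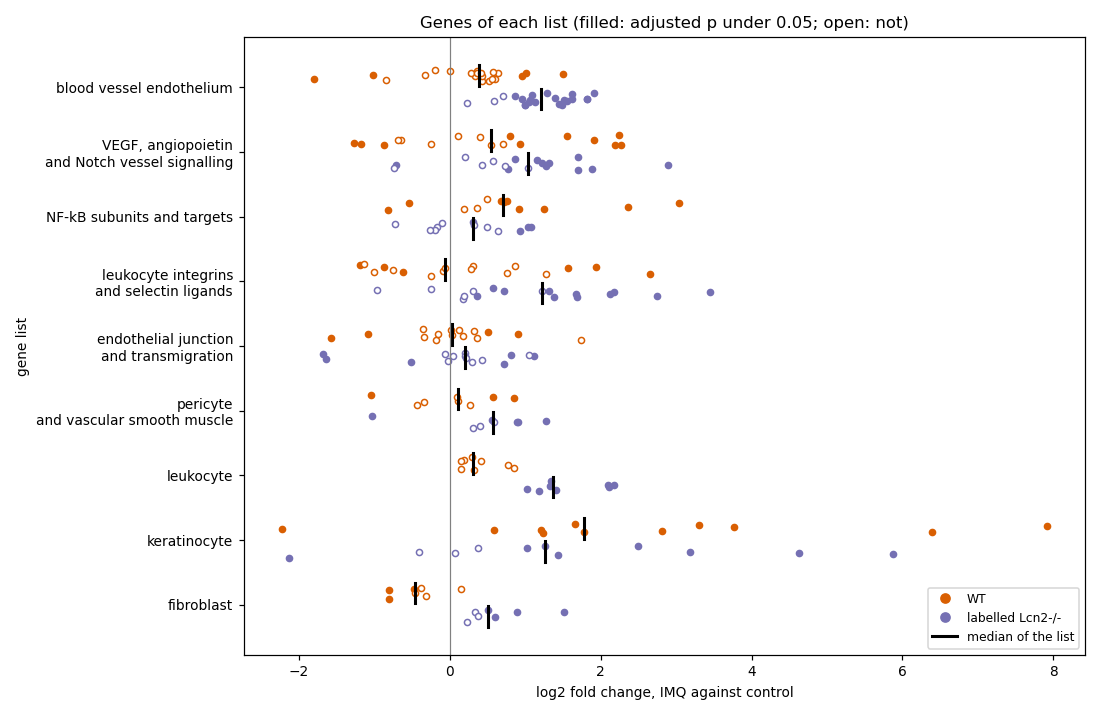
Log2 fold change with IMQ of every tested gene in 9 lists, in WT and in mice labelled Lcn2-/-; filled points passed an adjusted p under 0.05 and black bars mark list medians. The keratinocyte and NF-kB lists have higher medians in WT, and all the other lists shown, fibroblast markers included, have higher medians under the label. These differences between medians were not tested.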

How the data were processed

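Bulk RNA-seq of mouse back skin (2 × 150 bp reads) was analysed from 1 table of raw read counts per gene, 12 libraries in 4 groups of 3, as deposited by the authors. The submitters' processing notes name HISAT and the build mm8. The counting tool, its annotation and the use of strand are not given in the sources used here. Identifiers were Ensembl gene numbers, of which 52073 of 56923 (91.48%) matched GENCODE M21 on GRCm38. Names, positions and exon lengths come from that annotation, so positions are on another build than the one named, and unmatched identifiers held 0.567% of counts. No column was left unmapped. The protocol text mentions retina, but 5 retinal markers summed to at most 2.91 CPM.

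Counts were filtered (filterByExpr, minimum 10, total 15), leaving 18529 genes, scaled by TMM and tested with edgeR 4.0.16 (R 4.3.3; robust glmQLFit, glmQLFTest, 4 group means over all 12 libraries) with Benjamini-Hochberg adjustment. The script was tested on simulated data. Named genes were the 10 genes in every comparison and, per list, up to 3 genes with the largest absolute log2 fold change among those called, not overlapping and at 1 CPM or more on average. A gene this rule named in the integrin and selectin ligand list is not reported here. Members and lists were chosen with earlier results of these data known, and no test was run over a list. Alternatives were RLE factors, DESeq2 1.42.0, no filter, at least 10 counts in every library, the compared libraries alone, a replicate block, scaling to endothelial counts, a fold above 2 and each library left out.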

Additional observations from a re-analysis of the deposited data

Results flagged for a closer look

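Kdr and Icam1 lay on opposite sides of their control means in the 2 labels when each IMQ library is set against the mean of its controls. All 3 WT IMQ libraries lay below the WT control mean for Kdr (33.3 to 51.2 CPM against 52.9 CPM) and all 3 labelled IMQ libraries lay above theirs (57.9 to 66.4 CPM against 48.3 CPM). The difference of the responses was 0.80 ± 0.48 (SE) on the log2 scale (edgeR adjusted p = 0.319) and was not called, and WT control library 2 alone sets the WT direction. For Icam1 the WT IMQ libraries lay above their control mean (46.3 to 58.5 CPM against 35.1 CPM) and the labelled IMQ libraries just below theirs (48.2 to 59.91 CPM against 59.94 CPM), a direction that labelled control library 3 alone sets: without it the labelled log2 fold change was 0.24 (adjusted p = 0.379). The difference was -0.68 ± 0.34 (SE; edgeR adjusted p = 0.244) and was not called.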

How the results depend on the processing

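With 3 libraries a group, small changes may go uncalled. RLE factors and a minimum of 10 counts in every library changed no call of the 10 genes. Cdh5 and Icam1, which were not called in WT, were each called there in 1 of 6 alternative fits. Those 6 leave aside the endothelial scaling and the fits with a library left out. Kdr was called higher in labelled than in WT IMQ skin in 1 of the 6. In WT, 3 genes were called higher with no filter on low counts, 3 at a fold above 2, and 3 to 6 with 1 library left out. Under the label 4 to 7 were. Between the IMQ groups DESeq2 called 2 higher and 1 lower, the compared libraries alone 3 higher, and leaving out 1 library 0 to 3 higher and 0 to 1 lower. For the difference of the responses, DESeq2 called 1 higher and 1 lower, and leaving out 1 library 0 to 2 higher and 0 to 1 lower. The cause of these changes was not tested, including for WT IMQ library 2, which was only left out in turn like the others.

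Scaled to endothelial counts, 5 genes were called lower between the IMQ groups, 1 higher and 4 lower under the label and 4 lower for the difference, where 52.2% of all genes were called lower between the IMQ groups, 79.6% under the label and 47.6% for the difference. Signs turned between the IMQ groups for Pecam1 (-0.12), Kdr (-0.13), Flt1 (-0.55) and Icam1 (-0.74), and under the label for Cdh5 (-0.012), Kdr (-0.95), Flt1 (-0.53), Vegfa (-1.01), Sele (-0.39) and Selp (-0.45). They turned between controls for Kdr (0.12) and Flt1 (0.19), and in the difference for Pecam1 (-0.38), Cdh5 (-0.26), Kdr (-0.25), Flt1 (-0.74) and Vcam1 (-0.12). This follows from the construction, which moves all genes.

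With 1 library left out, signs turned in the control comparison, within -0.16 to 0.28 (Pecam1), -0.15 to 0.22 (Cdh5), -0.50 to 0.40 (Kdr), -0.16 to 0.076 (Flt1) and -0.21 to 0.93 (Vcam1), for Kdr in WT (-0.66 to 0.078) and for Icam1 under the label (-0.38 to 0.24). Replicate numbers did not pair the libraries in the same way in every comparison. Same-number correlations ran from -0.542 to 0.19 and those of different numbers from -0.329 to 0.539. The same-number values were 0.0566 to 0.19 in WT, 0.0319 to 0.0757 between the IMQ groups, -0.0802 to 0.038 under the label and -0.542 to -0.0134 between controls. With the replicate block, 4 genes were called higher in WT, Pecam1 and Flt1 being lost, and 5 under the label, with none between the IMQ groups.

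Over all genes, 405 were called higher and 481 lower between the IMQ groups, against 1278 and 1372 in DESeq2, 1077 and 817 on the compared libraries alone and 77 and 59 with the replicate block. For the difference of the responses, 253 higher and 145 lower became 1109 and 983 in DESeq2 and 7 and 3 with the block, with 2 to 1015 higher and 0 to 912 lower when 1 library was left out. With 1 library left out, the endothelial markers called higher numbered 2 to 4 in WT and 16 to 20 under the label, and the integrin and selectin ligand genes called higher 2 to 4 and 5 to 9, the last being fewest without labelled control library 3.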

Other observations

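Other tissue components of the same libraries moved with IMQ too. All 5 erythroid markers rose in WT and 3 of 5 under the knockout label. Hba-a2 led in WT (log2 fold change 3.04, and 2.34 under the label) and Hbb-bt led under the label (2.48). Their sum was 24.9 to 139 CPM in WT controls, 179 to 598 CPM in WT IMQ, 103 to 237 CPM in labelled control and 338 to 1089.5 CPM in labelled IMQ skin, over all 5 markers. Of 5 skeletal muscle markers, 4 fell in WT and 2 under the label, among them Tnnt3 (-1.25 and -0.98). Of 4 adipocyte markers only Lep, the leptin gene, fell (-3.36 and -2.28). Under the label, the calls of Lep, Hba-a2 and Hbb-bt each held in 2 of 6 fits with 1 library left out (edgeR adjusted p up to 0.0894, 0.126 and 0.0901). In WT that of Hba-a2 held in 5 of 6.

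Of 7 fibroblast markers, 3 fell and none rose in WT, and 4 rose and none fell under the label, the others not being called. The collagen gene Col1a1 went by -0.47 and 0.89, with a called difference of the responses of 1.37, and Col1a2 and Col3a1 differed by 1.31 and 1.36, the only 3 of the 7 so called. With 1 library left out in turn, these 3 calls held in 6, 5 and 3 of 12 fits, and the WT call of Col1a1 in 1 of 6. The list summed to 10086 to 10636 CPM in WT IMQ and 19699 to 20556 CPM in labelled IMQ skin, and its part in the Vcam1 values was not tested.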
